A study of Mus musculus with 6 samples.

Results

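The cytotoxic granule genes were compared between BM Tregs of CML and naive mice. These genes comprised 5 granzymes (Gzma, Gzmb, Gzmc, Gzmk and Gzmm), perforin (Prf1), the granule membrane protein gene Nkg7, the cathepsin W gene Ctsw and the serglycin gene Srgn. A row was taken when its name equaled one of these 9 symbols, and each of the 9 was found once among the 36930 features of the deposited tables. All mice were Foxp3-DTR-GFP mice of post-natal week 8, in which the Foxp3 locus drives the human diphtheria toxin receptor and GFP. CML mice (n = 3) had received LSKs, the stem and progenitor fraction of the BM, that carried a BCR-ABL1-GFP retrovirus, by i.v. injection without irradiation. Naive mice (n = 3) had received no leukemic cells. Tregs were FACS-purified from the BM, and each mouse gave 1 library. The comparison asks whether the granule genes differed between Tregs of leukemic and healthy marrow. The leukemic cells carry GFP as the Tregs do, and how far the sort separated both was not tested here.

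Cytotoxic lymphocytes store granzymes and perforin in secretory lysosomes that are released onto a bound target cell. Perforin opens the target membrane, and the granzymes, a family of serine proteases, enter and cleave proteins that trigger apoptosis. CD8+ T cells and NK cells are the main users of this machinery, and activated Tregs can also make granzyme B. Srgn encodes the proteoglycan on which granzymes are packed, and Nkg7 encodes a membrane protein that takes part in granule release. Ctsw encodes a cysteine protease found mainly in CD8+ T cells and NK cells.

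Levels are RPKM, reads scaled by coding length and by the reads of the library, so that they can be set side by side between genes. The reads behind the libraries, estimated from the steps of the values, ranged from 829181 (CML replicate 2) to 9751911 (naive replicate 3), and the other libraries lay at 2286190 or more. CML replicate 2 was thus the shallowest library, and 1 read was worth 1.62 RPKM of Gzmb there, against 0.138 RPKM in naive replicate 3. Foxp3, the Treg transcription factor, lay between 297 and 468 RPKM and Cd4 between 208 and 309 RPKM in the 6 libraries. In bulk RNA, more cells of a type and more RNA in each cell cannot be told apart.

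Gzmb was the granule gene with the largest difference, and its 3 CML libraries lay above all 3 naive libraries, as did those of Nkg7 and Srgn. Gzma was read in 2 CML libraries and in no naive library. Prf1, Gzmc, Gzmk, Gzmm and Ctsw overlapped between the groups. Of the 9 genes, 8 reached an average of 1 RPKM across the libraries and entered the limma test. None of the 8 passed an adjusted p of 0.05 with a fold of 1.5, against 24 of the 13923 features tested (0.172%). By an unadjusted p under 0.05 with that fold, 3 of 8 were higher in CML Tregs (Gzmb, Nkg7 and Srgn), where 2.61% of all features tested were higher. None of the 8 was lower, where 5.94% of all features tested were lower. The number higher was 5 without CML replicate 2, the shallowest library, with Ctsw and Gzma added. In that fit 677 of the 13923 features tested were higher, against 363 with all libraries. Without naive replicate 3 the number of granule genes higher was 1, Gzmb alone, and 251 of all features tested were higher.

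The 3 genes whose CML libraries all lay above the naive libraries compare with 4.84% of all features tested. Without CML replicate 2 there were 5, with Ctsw and Gzma added, but 4.84% is not the share for that fit, which was not counted. Gzma had no read in any naive library, so leaving out its CML library at 0 fixed that outcome. For Ctsw, CML replicate 2 at 5.86 RPKM was the only CML library below the highest naive library at 10.3 RPKM. Leaving it out fixed the outcome for Ctsw too. No granule gene had all CML libraries below all naive libraries, against 12.2% of all features tested. The median log2 difference was 1.21 over the 8 granule genes tested and -0.18 over all features tested. All 8 differences were above 0, where 35.7% of all features tested were, but those of Prf1 and Gzmc were near 0 and turned negative under another pseudocount or without some libraries. Gzma and Gzmk passed the filter on low values through their CML libraries alone, so the filter set the direction of both. Their part in this count, in the median and in the calls of other fits is not support for a direction. Under quantile normalization the median over all features moved to -0.01 and the split of unadjusted calls from 363 higher and 827 lower to 624 higher and 590 lower.

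**Figure D1:**
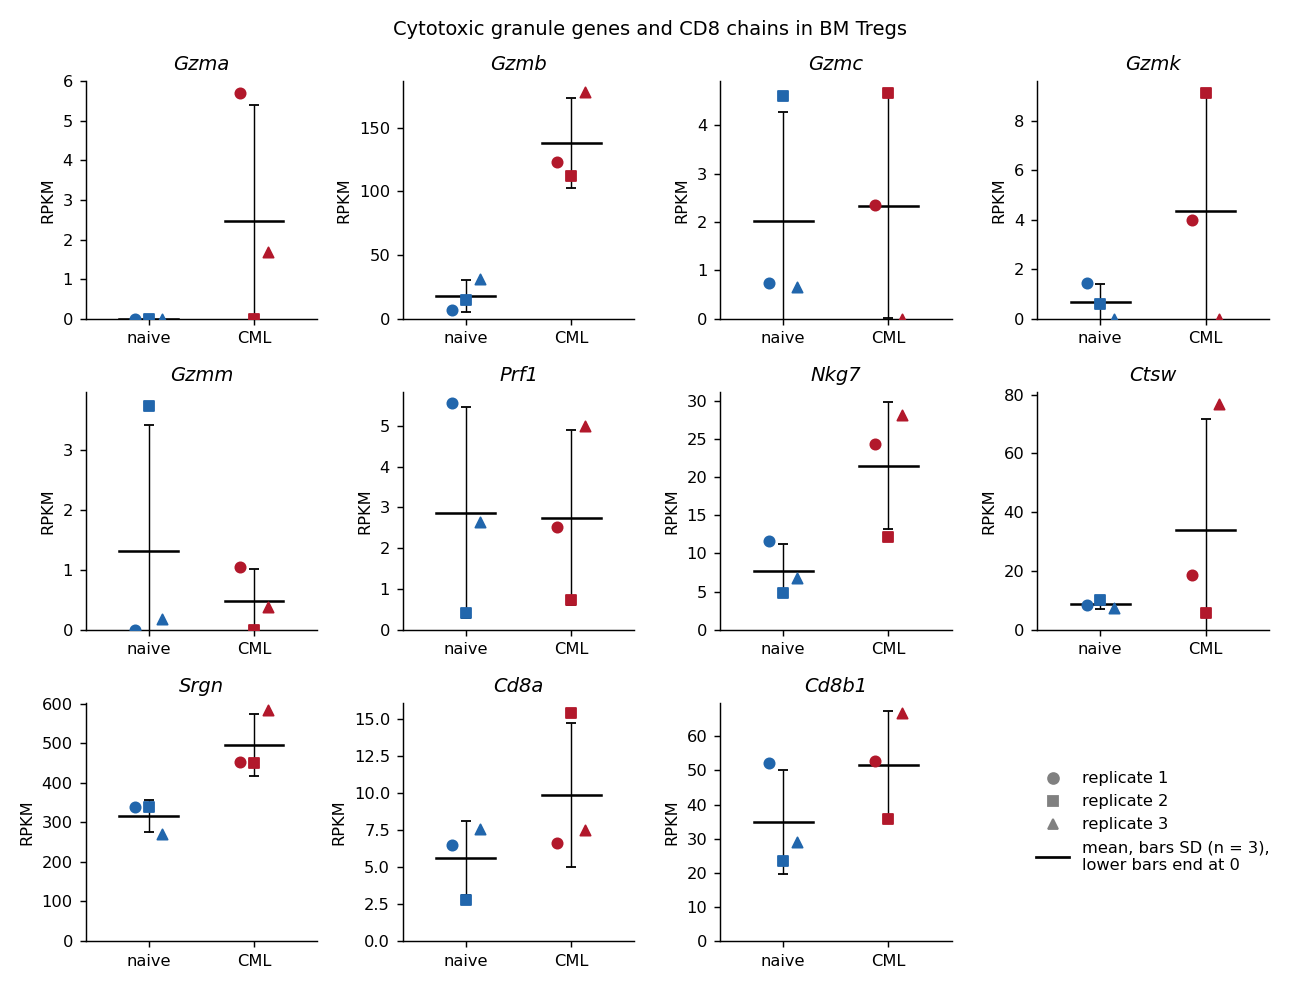
RPKM of each cytotoxic granule gene and of the CD8 chain genes Cd8a and Cd8b1 in 3 naive (blue) and 3 CML (red) libraries of BM Tregs, each panel with its own axis from 0. Points are libraries, horizontal lines are means and bars are SD (n = 3). The CML points of Gzmb, Nkg7 and Srgn all lie above the naive points, and the points of the other granule genes overlap or are at 0.

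The promoters of the 3 genes whose libraries did not overlap are shown, with letters that AP-1, RUNX, CRE-binding and T-box factors are known to bind. Each is the stretch of 250 bases before the transcription start in RefSeq (GRCm38.p6), written 5′ to 3′ on the strand of the gene, and a RefSeq promoter was found for 8 of the 9 genes, Ctsw being the exception. Capitals mark matches on either strand to AP-1 (TGANTCA), RUNX (ACCACA, which the other strand shows as TGTGGT), CRE (TGACGTCA) and T-box (AGGTGTGA), and no 2 matches overlap. Gzmb lies at chr14:56262335-56262584 (minus strand), Nkg7 at chr7:43436888-43437137 (plus strand) and Srgn, at the first of its 2 starts, at chr10:62527446-62527695 (minus strand).
Gzmb: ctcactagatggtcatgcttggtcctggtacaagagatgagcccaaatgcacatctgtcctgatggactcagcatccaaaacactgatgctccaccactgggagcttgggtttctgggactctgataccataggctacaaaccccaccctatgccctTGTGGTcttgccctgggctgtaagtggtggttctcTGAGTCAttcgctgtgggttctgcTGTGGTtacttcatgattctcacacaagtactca
Nkg7: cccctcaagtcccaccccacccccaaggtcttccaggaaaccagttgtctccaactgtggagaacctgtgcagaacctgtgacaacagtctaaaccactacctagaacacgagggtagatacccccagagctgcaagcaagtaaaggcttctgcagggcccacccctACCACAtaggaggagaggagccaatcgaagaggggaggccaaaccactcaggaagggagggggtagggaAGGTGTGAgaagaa
Srgn: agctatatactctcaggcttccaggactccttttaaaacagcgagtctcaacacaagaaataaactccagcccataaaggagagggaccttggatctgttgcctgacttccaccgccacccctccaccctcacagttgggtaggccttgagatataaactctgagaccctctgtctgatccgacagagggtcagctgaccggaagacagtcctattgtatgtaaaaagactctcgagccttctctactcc

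The Gzmb promoter held 1 AP-1 match, which began 58 bases before the start, and 2 RUNX matches at 93 and 34 bases. The Nkg7 promoter held a RUNX match at 83 bases and a T-box match at 14 bases before the RefSeq start. GENCODE starts the Nkg7 gene within this stretch, at chr7:43437073, so the T-box match lies inside the gene by that annotation. The first Srgn promoter held none of the 4 motifs, and the second held a RUNX match at 202 bases. Of 32851 RefSeq promoters of the same length, 6.75% held the AP-1 letters, 14.0% the RUNX letters, 1.55% the CRE letters and 1.12% the T-box letters. Of the other granule genes, Gzma, Gzmc, Gzmm and Prf1 held a RUNX match in a promoter, Gzmc also held a CRE match at 57 bases, and Gzmk held none of the 4. A match is a string of letters and not a bound site.

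Gzmb, encoding granzyme B, which activates caspases in the target cell, is a protein-coding gene at chr14:56258838-56262260 (minus strand, GENCODE M21 on GRCm38). Its level was 123, 112 and 178 RPKM in CML replicates 1 to 3. In naive replicates 1 to 3 it was 6.74, 15 and 31.2 RPKM. The lowest CML library thus lay above the highest naive library, and the naive libraries differed among themselves by more than the CML libraries did in proportion. The mean was 138 ± 35.5 RPKM in CML and 17.6 ± 12.4 RPKM in naive Tregs (SD, n = 3 each), a 7.81-fold ratio of means. The log2 difference was 3.10 (SE 0.48, 95% confidence interval 1.99 to 4.21), the 9th largest increase of 13923 features tested. The limma p was 0.000207 and 0.0729 after Benjamini-Hochberg adjustment over all features tested. An exact 2-sided permutation test of the means gave p = 0.1, the smallest that 3 against 3 allows.

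The Gzmb values rested on 698, 69 and 303 reads in CML replicates 1 to 3 and on 26, 98 and 226 reads in naive replicates 1 to 3. The 69 reads of the shallow CML replicate 2 gave an exact 95% Poisson interval of 87.0 to 142 RPKM. The 226 reads of naive replicate 3, the highest naive library, gave 27.2 to 35.5 RPKM. These 2 intervals did not overlap. Leaving out any 1 library gave a log2 difference of 2.58 to 3.61.

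Gzma encodes granzyme A, a tryptase that kills through a caspase-independent route (chr13:113093825-113100981, minus strand). It was at 5.70 RPKM in CML replicate 1 and 1.68 RPKM in CML replicate 3. It had no read in CML replicate 2 or in any naive library. These values were 34 and 3 reads, so CML replicate 1 held 91.9% of all Gzma reads. The floor of 3 reads stood at 0.739, 0.437 and 0.393 RPKM in naive replicates 1 to 3, and the value of CML replicate 1 was 7.71-fold the highest of these. The exact 95% Poisson interval of CML replicate 1 was 3.95 to 7.97 RPKM, and that of naive replicate 1 reached 0.908 RPKM. The same floor was 4.62 RPKM in CML replicate 2, where 1 read was worth 1.54 RPKM, so its count of 0 allows a level as in CML replicate 3. The 3 reads of CML replicate 3 gave an exact 95% Poisson interval of 0.346 to 4.90 RPKM, which reaches below the floor of naive replicate 1. The log2 difference was 1.39 (SE 0.75), with an adjusted limma p of 0.587.

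Gzmk, encoding another tryptase-like granzyme next to Gzma (chr13:113171608-113225908, minus strand), was at 3.98, 9.14 and 0 RPKM in CML replicates 1 to 3. It was at 1.46, 0.576 and 0 RPKM in naive replicates 1 to 3. The highest value, in CML replicate 2, came from 6 reads, and both groups held a library with no read. Its log2 difference was 1.23 (SE 0.88, interval -0.81 to 3.28) with an adjusted limma p of 0.677.

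Gzmc (chr14:56231441-56234656, minus strand) sits beside Gzmb in a cluster of closely related granzyme genes. Its level was 2.35, 4.66 and 0 RPKM in CML replicates 1 to 3 and 0.745, 4.61 and 0.661 RPKM in naive replicates 1 to 3. Both groups thus held 1 library near the same high value, and the log2 difference was 0.07 (SE 0.81, interval -1.80 to 1.95, limma adjusted p of 0.981). How reads that match several closely related granzymes were assigned is not known, so the Gzmc level is uncertain. The 5 further granzymes of the cluster, Gzmd, Gzme, Gzmf, Gzmg and Gzmn, had no read in any of the 6 libraries.

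Gzmm, encoding granzyme M, which is best known from NK cells (chr10:79689020-79695261, plus strand), missed the filter. It was at 1.05, 0 and 0.388 RPKM in CML replicates 1 to 3 and at 0, 3.74 and 0.182 RPKM in naive replicates 1 to 3. Naive replicate 2 alone was above 2 RPKM, and the means were 0.479 ± 0.53 and 1.31 ± 2.11 RPKM (SD, n = 3 each). An exact 2-sided permutation test gave p = 0.9.

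Prf1, encoding perforin (chr10:61297833-61304680, plus strand), was at 2.52, 0.724 and 4.99 RPKM in CML replicates 1 to 3. It was at 5.56, 0.411 and 2.65 RPKM in naive replicates 1 to 3. Each group held a library above 4 RPKM and one below 1 RPKM, and the means were 2.75 ± 2.14 and 2.87 ± 2.58 RPKM (SD, n = 3 each). The log2 difference was 0.04 (SE 0.74, interval -1.67 to 1.74) with an adjusted limma p of 0.990. The interval therefore takes in differences of either sign as large as that of Nkg7. The Prf1 reads numbered 52 over the CML and 97 over the naive libraries, and 1 read made up the value of CML replicate 2. These numbers are not scaled by depth. Estimated reads were 7613827, 829181 and 2286190 in CML and 5187987, 8771237 and 9751911 in naive replicates 1 to 3.

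Nkg7 (chr7:43437073-43438249, plus strand) was at 24.3, 12.1 and 28.1 RPKM in CML replicates 1 to 3. Its naive levels were 11.6, 4.81 and 6.80 RPKM in replicates 1 to 3. The lowest CML library, replicate 2, stood just above the highest naive library, replicate 1. The means were 21.5 ± 8.35 and 7.74 ± 3.50 RPKM (SD, n = 3 each), a 2.78-fold ratio. This gave a log2 difference of 1.36 (SE 0.44, interval 0.35 to 2.37). The limma p was 0.0149 and 0.370 after adjustment. CML replicate 2 rested on 5 reads with an exact 95% Poisson interval of 3.93 to 28.3 RPKM, so its place above the naive libraries was within counting error.

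Srgn (chr10:62493833-62527451, minus strand) was the most abundant granule gene in all 6 libraries. Its level was 453, 450 and 586 RPKM in CML replicates 1 to 3 and 340, 338 and 270 RPKM in naive replicates 1 to 3. The groups did not overlap, and the gap between them ran from 340 to 450 RPKM. The means were 496 ± 77.8 and 316 ± 39.9 RPKM (SD, n = 3 each), a 1.57-fold ratio. On the log2 scale the difference was 0.65 (SE 0.17, interval 0.25 to 1.04). The limma p was 0.00555 and 0.282 after adjustment. Srgn is made by many blood cells and is not particular to cytotoxic lymphocytes.

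Ctsw (chr19:5465043-5468507, minus strand) was at 18.7, 5.86 and 76.8 RPKM in CML replicates 1 to 3. Naive replicates 1 to 3 were at 8.31, 10.3 and 7.37 RPKM. The naive libraries lay close together, whereas the CML libraries spanned values below and far above them. The means were 33.8 ± 37.8 and 8.66 ± 1.5 RPKM (SD, n = 3 each), with a log2 difference of 1.19 (SE 0.77, interval -0.60 to 2.98, limma adjusted p of 0.646). CML replicate 3 was the highest library for Ctsw, and CML replicate 2, with about 5 reads, was the lowest.

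**Figure D2:**
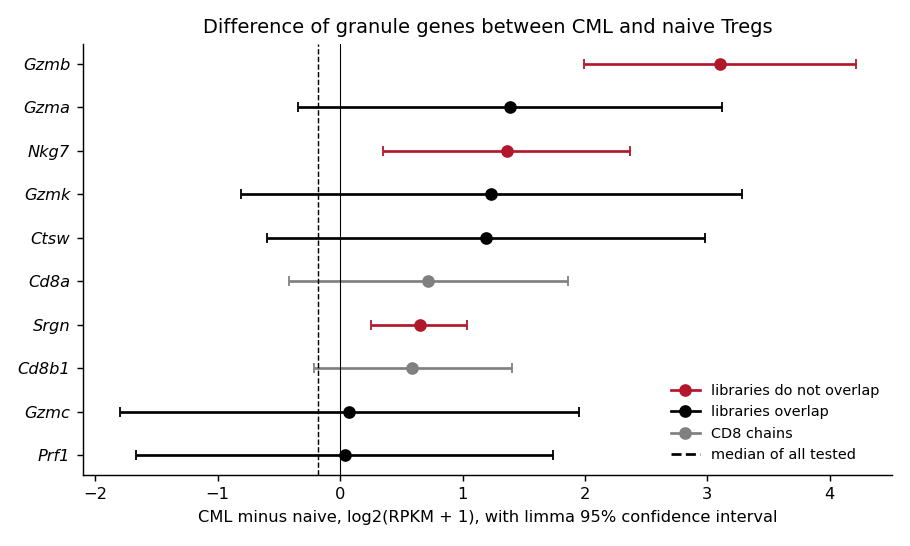
Log2 difference between CML and naive BM Tregs, on log2(RPKM + 1), for the 8 granule genes tested and the CD8 chain genes, with limma 95% confidence intervals (3 libraries a group). Red marks genes whose libraries do not overlap between the groups, and their intervals lie above 0, whereas those of the other genes include 0. The dashed line is the median of all features tested, -0.18.

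By level, Srgn led in all 6 libraries and Gzmb came next in all 3 CML libraries and in naive replicates 2 and 3. In naive replicate 1 Gzmb came after Nkg7 and Ctsw. Prf1 and the granzymes other than Gzmb lay under 10 RPKM in every library, and their order changed from library to library. The 9 levels summed to 635, 594 and 876 RPKM in CML replicates 1 to 3 and to 375, 377 and 319 RPKM in naive replicates 1 to 3. Srgn made up 66.9% to 75.7% of this sum in CML libraries and 84.7% to 90.8% in naive libraries. Without Srgn the sum was 182, 144 and 290 RPKM in CML and 34.4, 39.5 and 48.8 RPKM in naive replicates 1 to 3.

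Cd8a and Cd8b1 encode the chains of the CD8 coreceptor, which marks the main cytotoxic T cells and which Tregs with CD4 usually lack. Cd8b1 was at 52.8, 35.7 and 66.8 RPKM in CML replicates 1 to 3 and at 52.2, 23.4 and 28.9 RPKM in naive replicates 1 to 3. Cd8a was at 6.64, 15.4 and 7.45 RPKM in CML replicates 1 to 3 and at 6.45, 2.75 and 7.53 RPKM in naive replicates 1 to 3. Both genes were read in every library, and naive replicate 1 lay within the range of the CML libraries for Cd8b1. The log2 difference was 0.59 (SE 0.35) for Cd8b1, with an adjusted limma p of 0.614. For Cd8a it was 0.72 (SE 0.49), with an adjusted limma p of 0.663.

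The CD8 chains were summed in each library, and Cd8b1 made up most of the sum in every one. Which cells this CD8 chain RNA came from was not tested. Beside the summed CD8 chains, Gzmb stood at 2.07, 2.19 and 2.40 RPKM per RPKM in CML replicates 1 to 3. In naive replicates 1 to 3 this ratio was 0.115, 0.573 and 0.855. CML replicate 1 and naive replicate 1 had nearly the same summed CD8 chain level, 59.4 and 58.7 RPKM, while Gzmb was at 123 and 6.74 RPKM in them. Within the naive libraries, the library with the most CD8 chain RNA had the least Gzmb. Within the CML libraries, Gzmb and the summed chains had the same order, with replicate 3 highest and replicate 2 lowest.

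Nkg7 per summed CD8 chains was 0.408, 0.237 and 0.379 in CML replicates 1 to 3 and 0.198, 0.184 and 0.186 in naive replicates 1 to 3. The naive ratios were thus close to each other, and all CML ratios lay above them, that of replicate 2 on 5 reads of Nkg7. Prf1 per summed CD8 chains was 0.0425, 0.0142 and 0.0673 in CML and 0.0947, 0.0157 and 0.0727 in naive replicates 1 to 3, and the groups overlapped. Gzma gave a ratio of 0.0960 in CML replicate 1 and 0.0226 in CML replicate 3. Whether CD8+ cells in the sorted fraction contributed to the granule genes was not tested.

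**Figure D3:**
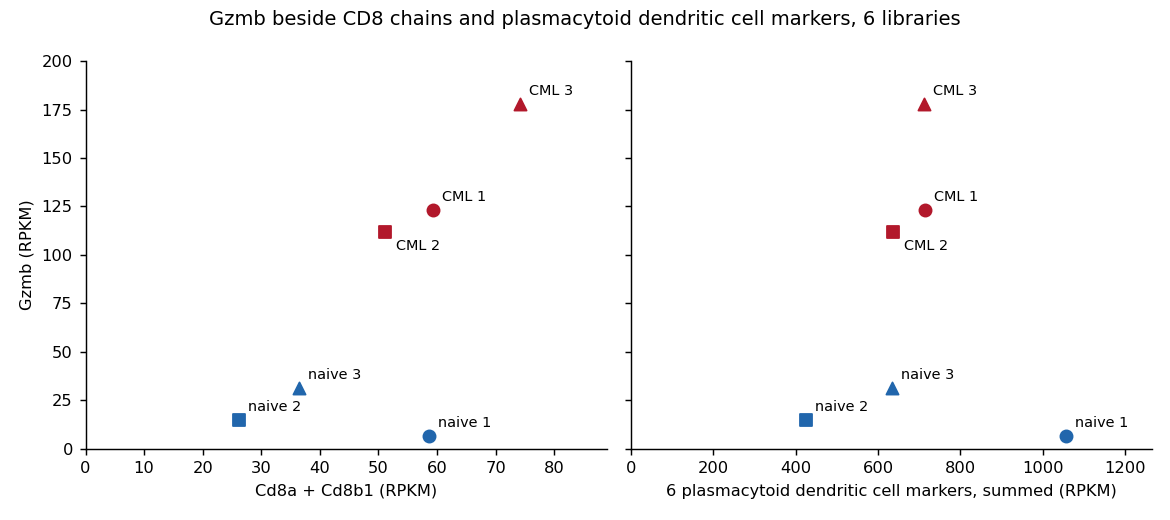
Gzmb (RPKM) in each library against the sum of Cd8a and Cd8b1 (left) and against the sum of 6 plasmacytoid dendritic cell markers (right), for 3 CML (red) and 3 naive (blue) libraries. At near 59 RPKM of CD8 chains, CML replicate 1 has 123 and naive replicate 1 has 6.74 RPKM of Gzmb. Naive replicate 1 has the highest plasmacytoid marker sum and naive replicate 2 the lowest. Whether either cell type contributed to Gzmb was not tested.

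Some genes that CD8+ T cells share with NK cells also lay higher in every CML library. Of 11 such genes, 7 were tested and 3 were higher by the unadjusted p and the fold, the chemokine genes Ccl3, Ccl4 and Ccl5, beside 2.61% of all features tested. The other 4 tested did not pass, with log2 differences of -0.98 for Klrd1, -0.10 for Cd244, -0.01 for Cd160 and 1.34 for Xcl1. Ccl5 was at 302, 227 and 513 RPKM in CML and 92.9, 104 and 136 RPKM in naive replicates 1 to 3, with a log2 difference of 1.57 (SE 0.30, limma adjusted p of 0.141). Ccl4 was at 22.1, 25.9 and 47.0 RPKM in CML and 4.14, 2.86 and 4.78 RPKM in naive replicates 1 to 3, with a log2 difference of 2.68 (SE 0.38, limma adjusted p of 0.0578). The receptor gene Klrc1 had no read in any library, and the level of the whole list, 310 to 604 RPKM in CML against 123 to 156 RPKM in naive libraries, was mostly Ccl5.

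NK cells were followed by 12 markers, and 8 to 10 of them were at 0 in each CML library and 4 to 7 in each naive library. Counts of 0 depend on depth. CML replicates 2 and 3 had 829181 and 2286190 estimated reads, and each naive library had 5187987 or more. Klra3, Klra4 and Klra8, receptors of NK cells, had no read anywhere. Ncr1, encoding the receptor NKp46, was at 4.56 RPKM in CML replicate 3 and at 0.238 RPKM or less in the other 5 libraries. The NK cell list summed to 124 to 160 RPKM in CML and 142 to 258 RPKM in naive libraries, nearly all of it Tyrobp and Fcer1g, which myeloid cells express too. Of the 3 tested, Klrb1f was lower in CML Tregs by the unadjusted p and the fold, but it had no read in CML libraries and passed the filter through its naive libraries alone, which set its direction. CML replicate 3, the library with Ncr1 at 4.56 RPKM, was also the highest for Ctsw, Gzmb, Nkg7 and Srgn. It had no read of Gzmk or Gzmc, and other libraries were the highest for Gzma, Prf1 and Gzmm. Whether NK cells contributed to the granule genes was not tested.

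Markers of other cell types were read as well, and some reached the scale of the Treg markers. Irf8 was at 169 to 438 RPKM and Siglech at 91.9 to 222 RPKM in the 6 libraries, beside 208 to 309 RPKM of Cd4. The 6 plasmacytoid dendritic cell markers summed to 715, 636 and 711 RPKM in CML and 1055, 425 and 634 RPKM in naive replicates 1 to 3, led by Irf8 and Siglech, and none of the 6 passed the test. Naive replicate 1 had the highest sum of these markers and the lowest Gzmb, and naive replicate 2 had the lowest sum and 15 RPKM of Gzmb. The summed CD8 chains, 58.7, 26.2 and 36.4 RPKM in naive replicates 1 to 3, had the same order as this marker sum. Within the CML libraries the marker sum was highest in replicate 1 and the CD8 chain sum in replicate 3. The neutrophil and promyelocyte list summed to 12.0, 213 and 232 RPKM in CML and 32.6 to 54.3 RPKM in naive libraries, with Mpo and S100a9 at the top and Ly6g at 0 throughout. Elane alone of its 9 genes tested was higher by the unadjusted p and the fold. Gzmb was at 123 RPKM in CML replicate 1, the library with the least of this list. The erythroid list summed to 131, 41.8 and 248 RPKM in CML and 5.93 to 30.9 RPKM in naive libraries, and 4 of its 7 genes tested were higher by the unadjusted p and the fold, beside 2.61% of all features tested. Hbb-bs and Hba-a1, which encode globin chains, led this list. The part of the plasmacytoid dendritic cell, erythroid and myeloid RNA in the granule gene levels was not tested.

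Monocyte and macrophage markers summed to 33.9 to 86.5 RPKM in CML and 65.2 to 107 RPKM in naive libraries, led by Cd68 and Ly6c2. Mast cell and basophil markers summed to 4.69 to 12.0 RPKM in CML and 0.378 to 4.96 RPKM in naive libraries, led by Gata2 and Hdc. Gata2 was higher by the unadjusted p and the fold, but it passed the filter through its CML libraries alone, which set its direction. B and plasma cell markers summed to at most 11.3 RPKM, led by Cd79b and Cd79a, with Pax5 and Ebf1 at 0 throughout. The 8 Treg and CD4 T cell genes summed to 1889 to 2545 RPKM in CML and 1862 to 2101 RPKM in naive libraries, led by Cd3e and Foxp3, and none passed the unadjusted p with the fold.

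The rest of the granule pathway was described by 5 lists with 49 genes, of which 47 had a row and 39 were tested. None passed the adjusted p, while 5 were higher and 0 lower by the unadjusted p and the fold, beside 2.61% higher and 5.94% lower among all features tested. In 5 of the 39 the CML libraries lay above every naive library, and in 2 they lay below every one, beside 4.84% and 12.2% among all features tested. The lists concern granzymes other than those above, processing and inhibition, trafficking, death ligands and transcription factors.

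Of 12 genes for granule processing, membrane and inhibition, 10 were tested, 2 were higher and 0 lower by the unadjusted p and the fold, and the median log2 difference was 0.15. Cst7, encoding cystatin F, an inhibitor of the cathepsins that activate granzymes, was at 63.7, 27.7 and 62.3 RPKM in CML replicates 1 to 3. It was at 15.5, 20.7 and 20.5 RPKM in naive replicates 1 to 3, and the groups did not overlap (log2 difference 1.31, SE 0.35, limma adjusted p of 0.282). Serpinb6b, of the serpin family that inhibits granule proteases, was at 32.2, 35.7 and 31.6 RPKM in CML and 14.4, 11.7 and 17.5 RPKM in naive replicates 1 to 3. Its log2 difference was 1.15 (SE 0.24, limma adjusted p of 0.192). Lamp2, encoding a lysosomal membrane protein, had a log2 difference of 0.53 and an adjusted limma p of 0.697. Lamp1, whose protein reaches the cell surface on degranulation, was at 75.1, 66.0 and 67.3 RPKM in CML and 92.0, 76.2 and 77.1 RPKM in naive replicates 1 to 3, and all CML libraries lay below.

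Of 17 trafficking and exocytosis genes, 16 were tested, none passed, and the median log2 difference was -0.03. The largest differences were those of Sytl1 at -0.89, Stx11 at 0.76 and Rab27a at 0.39 (adjusted limma p of 0.692, 0.642 and 0.689). Rab27a encodes the GTPase that docks granules at the membrane, and Stx11 a membrane fusion protein. Their levels overlapped between the groups. Rab27a was at 110, 48.9 and 58.5 RPKM in CML and 53.2, 50.3 and 51.3 RPKM in naive replicates 1 to 3, with CML replicate 1 apart from the other 5 libraries.

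The 5 death ligand and cytokine genes were all tested, none passed, and the median log2 difference was -0.40. Fasl, encoding the ligand of the granule-independent killing route, was at 8.5, 0 and 0 RPKM in CML and 4.42, 4.54 and 3.18 RPKM in naive replicates 1 to 3 (log2 difference -1.24, limma adjusted p of 0.678). Lta was at -0.91 and Tnf at -0.40 on the log2 difference scale, with adjusted limma p of 0.706 and 0.741. Ifng, the cytokine of cytotoxic cells, was at 17.7, 18.0 and 58.9 RPKM in CML and 20.6, 21.4 and 19.1 RPKM in naive replicates 1 to 3, again with CML replicate 3 apart.

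Among 10 transcription factors of the cytotoxic program, 8 were tested and 3 were higher and 0 lower by the unadjusted p and the fold, beside 2.61% and 5.94% of all features tested. The median log2 difference was 0.56. Prdm1, encoding Blimp-1, was at 53.5, 39.4 and 51.9 RPKM in CML and 19.9, 21.3 and 21.9 RPKM in naive replicates 1 to 3 (log2 difference 1.15, SE 0.21, limma adjusted p of 0.131). Tbx21, encoding the T-box factor T-bet, was at 20, 17.4 and 21.7 RPKM in CML and 5.93, 8.59 and 12.4 RPKM in naive replicates 1 to 3 (log2 difference 1.10, SE 0.34, limma adjusted p of 0.346). Bhlhe40 was at 68.8, 49.8 and 102 RPKM in CML and 42.3, 33.5 and 36.3 RPKM in naive replicates 1 to 3 (log2 difference 0.90, SE 0.28, limma adjusted p of 0.346). None of the 3 overlapped between the groups. Eomes, the T-box factor of effector CD8+ T cells and NK cells, was at 0.144, 0 and 0 RPKM in CML and 1.18, 1.13 and 0.483 RPKM in naive replicates 1 to 3 and was under the filter. The genes Srgn, Nkg7, Gzmb, Gzma, Prdm1 and Tbx21 also stand in the study's own list of changed genes, which was chosen on these samples and is not independent evidence of their direction.

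**Figure D4:**
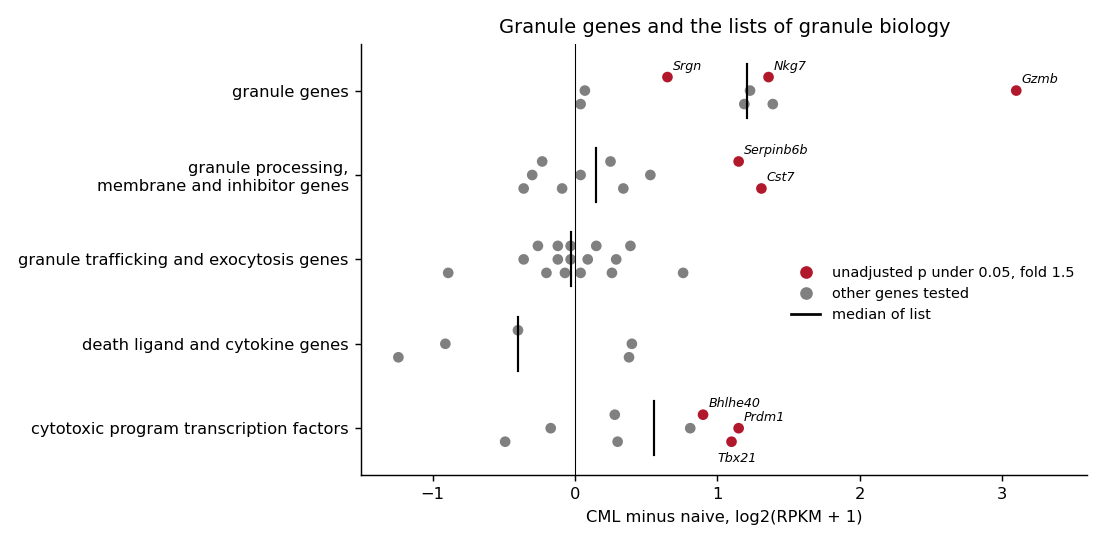
Log2 difference between CML and naive BM Tregs, on log2(RPKM + 1), of each tested gene in the granule genes and in 4 lists of granule biology (3 libraries a group). Points are genes, red where the unadjusted limma p is under 0.05 with a fold of at least 1.5, and vertical bars are list medians. The medians are 1.21 for the granule genes, 0.15 for processing, -0.03 for trafficking, -0.40 for death ligands and 0.56 for transcription factors.

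The features whose levels followed Gzmb most closely over the 6 libraries were Abcb1a (Pearson r = 0.997 of log2(RPKM + 1)), Tbx21 (0.993), Nr3c1 (0.988), Ifit1 (0.987) and Fosl2 (0.986), among 10047 features with a mean of at least 5 RPKM. Abcb1a, a drug efflux pump gene, was at 67.8, 63.0 and 77.1 RPKM in CML and 25.8, 35.3 and 44.5 RPKM in naive replicates 1 to 3. Fosl2, encoding an AP-1 subunit, was at 22.4, 24.6 and 25 RPKM in CML and 4.91, 8.37 and 9.41 RPKM in naive replicates 1 to 3. All 5 shared with Gzmb both the higher CML level and the order of the naive libraries, replicate 1 lowest and replicate 3 highest. The 6 points share the group difference, and the features were ranked by their likeness, so these values are a description.

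For Gzma the closest features were Frmd4b (r = 0.990), Serinc3 (0.989), Sema4d (0.987), Mcm3 (0.983) and Ube2l3 (0.982). All of them were highest in CML replicate 1 and next highest in CML replicate 3, the only libraries with Gzma reads. Gzma rested on 34 and 3 reads there and was at 0 elsewhere, so r mainly ranked features by that order. These values too are a description. Mcm3, encoding a helicase subunit of DNA replication, was at 56.8, 22.3 and 43.0 RPKM in CML and 24.4, 23.1 and 25.5 RPKM in naive replicates 1 to 3.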

How the data were processed

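RNA from FACS-purified BM Tregs of 3 CML and 3 naive mice was amplified with SMART-Seq v4 and sequenced single-end on a NextSeq instrument. Read assembly by the authors used SeqMan NGen, normalized levels came from ArrayStar, and the submitters' processing notes name GRCm38 and mm10. The study does not name the unit. The values the authors deposited were treated as RPKM because they fall on whole reads per coding length and library size. Of values of up to 20 reads in genes with a single annotated coding length, 72.7% to 76.1% lay within 0.05 of a whole number, against 10% by chance. Reads of Gzma, Gzmb, Gzmk, Prf1, Nkg7 and Cd8b1 were whole in all 6 libraries. Those of Gzmc, Gzmm, Ctsw, Srgn and Cd8a were not, so their read numbers are approximate. The value 0.001, which stands for no reads, was set to 0.

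Features with a mean of at least 1 RPKM (13923) were tested on log2(RPKM + 1) with limma 3.58.1 (R 4.3.3) with a trended prior, group as the only term and Benjamini-Hochberg adjustment. Fold changes on this scale understate those of low genes. The study names DESeq2 for its own test, which needs counts and was not run on these values. Calls required an adjusted p under 0.05 and a fold of at least 1.5. Single values were compared by exact 2-sided permutation over 20 assignments (smallest p 0.1). The fit was tested on simulated data first. Confidence levels are 95%, and Poisson intervals and the floor of 3 reads cover counting error only, because amplified reads carry no molecular identifiers.

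The genes, lists and tests were chosen with earlier results of these data known. Named were all 9 granule genes, Cd8a and Cd8b1, in each pathway list the 3 largest differences and each gene past the unadjusted p and the fold, in each marker list the 2 most abundant genes, and the 5 features most like Gzma and Gzmb. Ccl3, Ctsw in CML replicate 3, Ncr1, Klrb1f, Elane, Cd4, Lamp1, Ifng, Eomes, the Klra genes, Klrc1, Klrd1, Cd244, Cd160, Xcl1, Ly6g, Pax5 and Ebf1 were singled out after their values were seen. Replicates are separate mice, and p-values measure the spread between them. Alternatives changed the pseudocount, filter, scaling, prior, weights, block and libraries.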

Additional observations from a re-analysis of the deposited data

How the results depend on the processing

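No granule gene passed the adjusted p in any of 17 alternatives. Gzmb had a log2 difference of 2.58 to 3.61 with an adjusted limma p of 0.0502 to 0.450 and an unadjusted p under 0.05 in all 17, Srgn had 0.52 to 0.80 and an unadjusted p under 0.05 in all 17, and Nkg7 had 1.04 to 1.71 and did so in 13 of 17. The number of granule genes past the unadjusted p of 0.05 and the fold was 3 in the reported fit. It was 4 under quantile normalization, which added Gzma, and 5 with library weights, which added Ctsw and Gzma. Over all features tested, 363 were higher by both in the reported fit, 624 under quantile normalization and 460 with library weights. Leaving out 1 library gave 1 to 5, with 5 without CML replicate 2 (Ctsw and Gzma added), 2 without CML replicate 1 (Gzmb and Srgn), 2 without CML replicate 3 (Gzmb and Gzmk), 2 without naive replicate 2 (Gzmb and Srgn) and 1 without naive replicate 3 (Gzmb). The number of granule genes without overlap was 4 under quantile normalization, with Gzma added. It was 3 to 5 when 1 library was left out, with 5 without CML replicate 2. The share of all features without overlap was not counted for these fits, so these numbers have nothing to be read against. The number of pathway genes past the unadjusted p and the fold was 9 with library weights. It was 5 to 8 when 1 library was left out, with 8 without CML replicate 2.

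Prf1 turned to -0.01 with a pseudocount of 5 and lay between -0.56 and 0.55 when 1 library was left out. Gzmc turned to -0.46 with a pseudocount of 0.1 and lay between -0.47 and 0.78 when 1 library was left out. The number of all features past the adjusted p was 24 and moved to 53 under quantile normalization or a common 75th percentile, 45 with library weights, 43 with a common sum over features other than LOC features, 12 without small RNA and T cell receptor features, 11 without a trended prior, 1 without the filter and 0 to 17 when 1 library was left out. The cause of these changes was not tested.

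With the replicate number as a block, 3 granule genes and 5 pathway genes were past the unadjusted p and the fold. By both, 325 of all features tested were higher and 797 lower. In that fit 1 feature in all passed the adjusted p. Equal numbers belong to different mice, and the deviations of same-numbered libraries had correlations of -0.005, -0.002 and -0.019, so the numbers were not used to pair the mice.

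CML replicate 2 had 829181 estimated reads, so that its count of 0 for Gzma allows a level of up to 4.62 RPKM, the floor of 3 reads. With 3 mice a group, intervals of the low granule genes span both directions.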
